A study of Mus musculus with 12 samples.

Results

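Myh7, Zcchc12, Vat1l, Nr2f2, Nrgn, Eaf2 and Tspan33 are 7 mouse genes picked because their arrays read higher in neurons of the lateral entorhinal cortex (LEC) than in those of the medial entorhinal cortex (MEC). All probes carrying their names were taken, which gave 14 of the 41174 probes of the array. Of these 14, 11 carry the gene's own symbol, and the 3 probes of Vat1l stand under the older name AI427515 and were matched through their transcript accession NM_173016. The array names 19694 genes, of which 9557 have a probe that passed a filter on dim signals. That filter asked that 4 or more of the 6 readings of some region and genotype stood well above background, and 12 of the 14 probes and 12987 of all probes passed it. The genes were picked by the difference between regions, so that difference is described below with no test, and only the comparison of mutant with control was tested.

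The neurons were cut from Nissl-stained sections by laser capture, 500 per region, from C57BL/6 female mice aged 2 months. Mutants were Naglu-/- and lack a lysosomal enzyme that degrades heparan sulfate, and controls were Naglu+/- littermates, so the controls also carry 1 disrupted allele. From either region 3 pairs of a mutant and a control were taken, and the amplified RNA of each pair was hybridised together on 2 arrays with the dyes exchanged, which made 12 arrays. The labels do not say whether the MEC and LEC pairs came from the same mice. What p-values measure here is the spread between the 3 pairs within each region. For each probe that spread is estimated jointly over both regions and moderated across probes by limma. Capture was by region and not by cell class, so fewer cells of a type and less RNA per cell cannot be told apart.

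All 6 MEC arrays were scanned on 1 day with pixels of 10 µm and all 6 LEC arrays on another day with pixels of 5 µm, per the file headers, so region and scan cannot be told apart. Before scaling, the median level was 6.21 to 6.32 on the MEC arrays and 6.48 to 6.57 on the LEC arrays (log2). Of the spots, 48.2% to 67.9% stood well above background in the Cy3 channel, 14.8% to 30.4% did so for Cy5, and the number of arrays limits the precision. The authors' value table assigns 5 of the 6 LEC files to another LEC sample than the file's name, and in replicate 2 of both regions its sign opposes the labelled dyes. Arrays and directions follow that table below, and values by the labelled dyes are given beside the main ratios and channel differences that change. The levels of single LEC pairs, their SDs and their gaps to MEC depend on which files form a pair. They follow the table, and values by the labelled files are given for few of them. Naglu itself passed the filter with neither of its 2 probes, and its brighter probe read −0.04 to 0.09 (log2 mutant over control) over the 6 pairs, which checks neither the genotypes nor the dyes. Of 12 markers of excitatory neurons 8 passed the filter, and those that did not include Slc17a7, Tbr1 and Nptx1, with Slc17a7 well above background in 11 of 24 readings. Of 8 markers of inhibitory neurons 5 passed.

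The entorhinal cortex links the hippocampus with the neocortex, and its medial and lateral divisions differ in their connections and in the genes they express. The 7 genes belong to different families. Nr2f2 encodes COUP-TFII, an orphan nuclear receptor that represses or activates transcription from repeats of a short half-site and that marks particular brain regions and interneurons. Zcchc12 encodes a coactivator of bone morphogenetic protein (BMP) signalling, and Eaf2 a partner of the ELL factors, which keep RNA polymerase II elongating. Nrgn encodes neurogranin, which holds calmodulin at the postsynaptic side of excitatory synapses. Myh7 encodes the slow myosin heavy chain of heart and skeletal muscle. Tspan33 is a tetraspanin of the group that escorts the protease ADAM10 to the cell surface, and Vat1l encodes a relative of the vesicle protein Vat1 with the fold of a quinone reductase.

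The promoters of these genes were read because the genes were higher in the same captures. RefSeq starts on assembly GRCm38.p6 were matched for 7 of the 7 genes, with 10 starts in all, and the 250 bases before each start were searched on both strands for 5 short motifs. The sequences of 3 genes are shown, Nr2f2 because it is the transcription factor of the set, and Myh7 and Nrgn because they hold the muscle-type motif. Each runs 5′ to 3′ on the gene's strand and ends at the base before the start, and the capitals mark the motif matches on either strand.
Myh7 (chr14:54994627-54994876, minus strand): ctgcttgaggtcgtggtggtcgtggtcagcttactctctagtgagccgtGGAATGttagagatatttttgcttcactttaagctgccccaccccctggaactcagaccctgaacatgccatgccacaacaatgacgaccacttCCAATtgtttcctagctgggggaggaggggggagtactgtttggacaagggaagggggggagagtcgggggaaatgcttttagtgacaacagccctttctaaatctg
Nr2f2 (chr7:70366747-70366996, minus strand): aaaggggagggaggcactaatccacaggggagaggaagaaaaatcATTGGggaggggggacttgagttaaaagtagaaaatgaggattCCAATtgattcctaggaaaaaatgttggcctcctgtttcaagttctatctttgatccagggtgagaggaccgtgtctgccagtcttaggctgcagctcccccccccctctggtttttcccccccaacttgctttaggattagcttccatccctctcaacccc
Nrgn (chr9:37552746-37552995, minus strand): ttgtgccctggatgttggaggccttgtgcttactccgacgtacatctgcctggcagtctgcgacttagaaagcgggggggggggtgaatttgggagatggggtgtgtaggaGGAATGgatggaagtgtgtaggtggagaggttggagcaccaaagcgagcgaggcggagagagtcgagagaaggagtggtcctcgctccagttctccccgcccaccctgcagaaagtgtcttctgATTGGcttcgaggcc

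The half-site AGGTCA (reverse complement TGACCT), to which COUP-TFII and other nuclear receptors bind, was not in these windows for 10 of the 10 starts, while 14.02% of 32851 RefSeq promoters hold it. The MCAT motif CATTCC (reverse complement GGAATG), known from muscle promoters, was found in 2 of the 10, upstream of Myh7 and of Nrgn, against 12.6% of all promoters. It lies 201 bases before the Myh7 start and 139 bases before the Nrgn start, on the reverse strand of each sequence. A CCAAT box (reverse complement ATTGG) was found before 8 of the 10 starts, in 5 of the 7 genes, against 33.8% of all promoters. That share is counted per start and not per gene. The 2 Myh7 windows overlap and hold the same CCAAT (107 and 184 bases before their starts), so the 8 are not separate finds. Zcchc12 and Vat1l had none of the motifs. TATAAA (reverse complement TTTATA) was found before 1 of the 3 Eaf2 starts, against 12.4% of all promoters, and CACGTG before none of the 10, against 6.02%. A match describes the letters only. The motifs do not overlap one another in the sequences shown.

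The level of a probe is given as the log2 mean of both dyes after background correction and scaling, averaged over the 2 arrays of a pair, and levels are compared only within a probe. Among the transcription regulators, Nr2f2 was read by a probe on chromosome 7 (build mm8, 70227002 to 70227061) at 7.11, 7.20 and 6.94 in the MEC pairs 1 to 3 and at 8.28, 8.49 and 8.30 in the LEC pairs. All 3 LEC pairs lay above all 3 MEC pairs, by 1.08 at the closest. The means were 7.08 ± 0.13 and 8.35 ± 0.12 (SD, n = 3), a difference of 1.27 (2.41-fold).

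Zcchc12, on the X chromosome (32630505 to 32630564), was read at 7.20, 7.67 and 7.10 in MEC and at 8.98, 9.16 and 9.14 in LEC. The LEC pairs were close together and the MEC pairs more spread, with pair 2 the highest of them. The means were 7.32 ± 0.31 and 9.09 ± 0.10 (SD, n = 3), a difference of 1.77 (3.41-fold).

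Eaf2, on chromosome 16 (36712375 to 36712433), was read at 7.46, 7.17 and 7.67 in MEC and at 9.47, 8.58 and 7.94 in LEC. The 2 arrays of LEC pair 2 were far apart, at 9.29 and 7.87, and 8.58 is their mean. Those of LEC pair 1 read 9.59 and 9.35, and those of LEC pair 3 read 8.08 and 7.79. Eaf2 had the widest spread in LEC of the 7 genes at their brightest probes, and LEC pair 3 lay 0.27 above the highest MEC pair. With the files taken as labelled, the LEC pairs lay 0.94 or more above the MEC pairs. The means were 7.43 ± 0.25 and 8.66 ± 0.77 (SD, n = 3), a difference of 1.23 (2.35-fold), and without LEC pair 1 the difference was 0.83.

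Nrgn, the synaptic gene, on chromosome 9 (37294187 to 37294246), was read at 9.98, 10.70 and 9.70 in MEC and at 11.12, 11.17 and 11.57 in LEC. MEC pair 2 came within 0.42 of the lowest LEC pair. The means were 10.13 ± 0.52 and 11.29 ± 0.24 (SD, n = 3), a difference of 1.16 (2.23-fold).

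Myh7, the myosin gene, on chromosome 14 (53924903 to 53924962), was read at 6.64, 6.99 and 6.67 in MEC and at 8.31, 8.81 and 8.95 in LEC. The regions were separated by 1.32 at the closest. The means were 6.77 ± 0.19 and 8.69 ± 0.34 (SD, n = 3), a difference of 1.93 (3.80-fold).

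Vat1l, on chromosome 8 (117259848 to 117259907), was read at 6.66, 7.06 and 7.23 in MEC and at 8.43, 8.72 and 8.79 in LEC. The lowest LEC pair lay 1.20 above the highest MEC pair. The means were 6.98 ± 0.29 and 8.65 ± 0.19 (SD, n = 3), a difference of 1.66 (3.17-fold).

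Tspan33, the membrane protein, on chromosome 6 (29668490 to 29668549), was read at 6.75, 6.96 and 6.94 in MEC and at 7.74, 8.26 and 8.30 in LEC. LEC pair 1 was the lowest of the LEC pairs, as it was for Myh7, Vat1l, Zcchc12, Nr2f2 and Nrgn, and it was the highest for Eaf2. The means were 6.88 ± 0.12 and 8.10 ± 0.31 (SD, n = 3), a difference of 1.22 (2.33-fold).

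**Figure D1:**
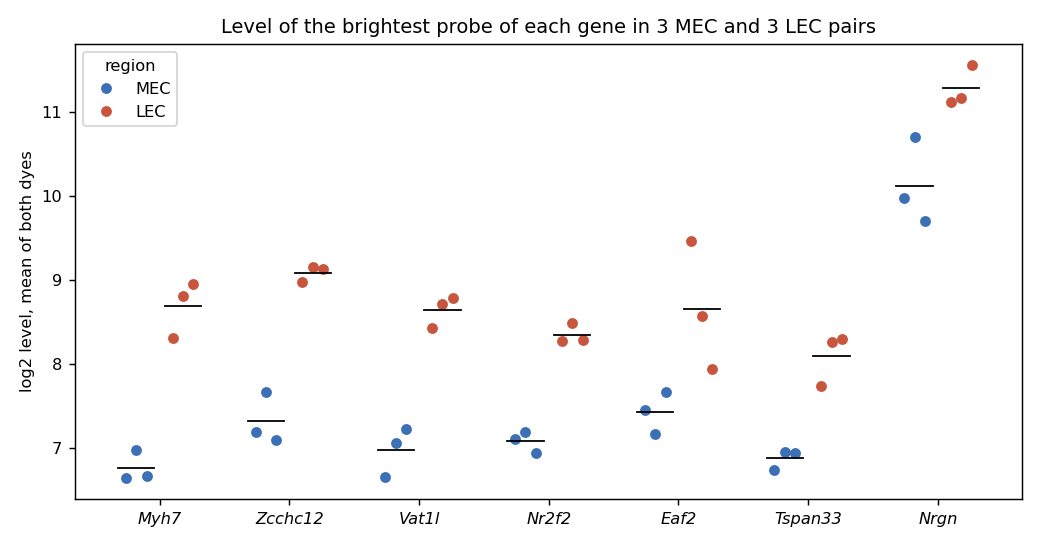
The vertical axis gives the log2 level as the mean of both dyes, for the brightest probe of each gene; each point is 1 pair (3 MEC, 3 LEC) and the black line is the mean. The LEC points lie above the MEC points for each of the 7 genes, and Eaf2 comes closest to overlap, with a gap of 0.27. With the files taken as labelled, which is not drawn, the Eaf2 gap is 0.94 and Nrgn comes closest, with a gap of 0.40.

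Ordered by this difference over all 12987 probes that passed, the 7 genes took ranks 2 to 16. The 2 Myh7 probes ranked 2 and 3, Zcchc12 4, Vat1l 5, Nr2f2 10, Eaf2 11, Tspan33 12 and Nrgn 16. Another 8 probes stood among them and are not members, 6 of them with a gene name. Penk, the enkephalin precursor, ranked first at 2.53, and Pcdh8 (1.59), Grn (1.41), Nos1 (1.31), Plk5 (1.18) and Snord33 (1.17) lay between Vat1l and Nrgn. Just below Nrgn came Fgfrl1 (1.15), Ttc34 (1.14) and Fxyd6 (1.11). By limma with Benjamini-Hochberg adjustment under 0.05, 13.2% of all probes that passed the filter were higher in LEC and 11.2% lower.

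The other probes of the same genes were set beside these. The second Myh7 probe (53924898 to 53924957) shares 55 of its 60 bases with the first, so its difference of 1.94 is not a separate reading of the transcript. A second Nr2f2 probe (70228074 to 70228133), 1072 bases from the first, was read at 6.38, 6.69 and 6.60 in MEC and at 7.20, 7.38 and 7.15 in LEC. Its regions did not overlap either, and its difference of 0.69 was smaller (rank 161). The last Nr2f2 probe (70239252 to 70239311), 12250 bases from the first and made from the transcript AK012573, had a difference of −0.03.

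The remaining probes of Vat1l, Eaf2 and Tspan33 were dim. Those of Vat1l (117258202 to 117258261 and 117259254 to 117259313) had differences of −0.01 and 0.02, the second Eaf2 probe (36713092 to 36713151) 0.03, and the second Tspan33 probe (29666722 to 29666781) 0.11. With that last Nr2f2 probe, these dim probes were well above background in 8 to 12 of 12 Cy3 readings and in 0 to 2 of 12 Cy5 readings. Their levels in all 6 pairs lay between 5.88 and 6.15, whereas the brightest probe of each gene was well above background in 24 of 24 readings. Of the 14 probes none was saturated on any array. Zcchc12 and Nrgn have 1 probe each, and Myh7 has 1 place, so with quantile scaling probes at separate places both showed a difference over 0.5 only for Nr2f2. With Agilent's processed signals, to which no offset is added, the second Tspan33 probe also did, at 0.71 (rank 778), with LEC pairs 0.30 or more above the MEC pairs. That probe passed the filter only through the LEC controls (5 of 6 readings, against 2 to 3 in the other groups). Its difference is therefore not taken as support for the first probe. Which exon or untranslated part a probe lies in was not analysed here, since no annotation of build mm8 was used.

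**Figure D2:**
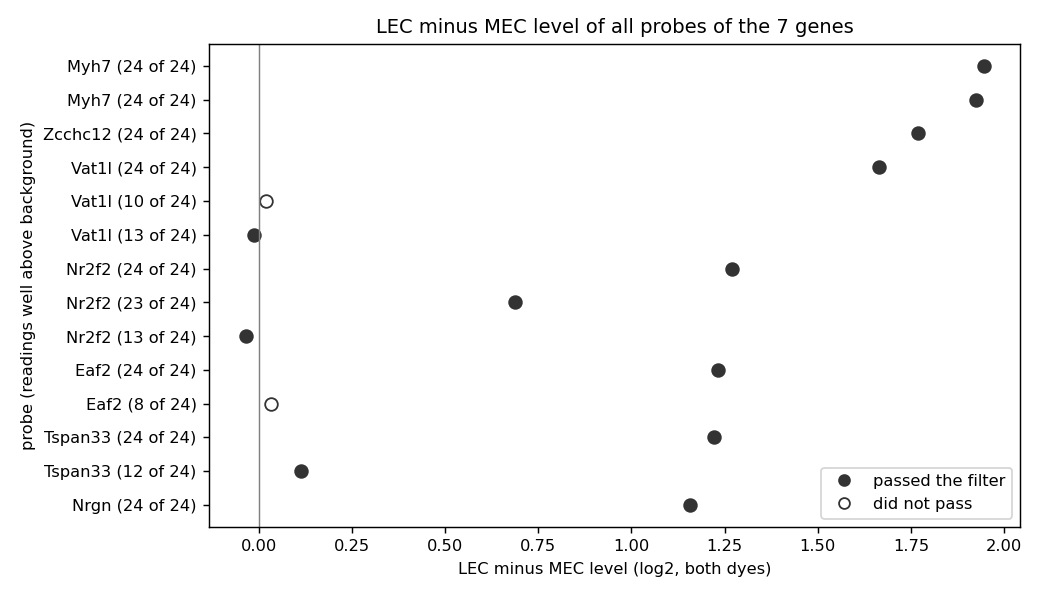
The horizontal axis gives the LEC minus MEC level (log2, both dyes) and each row is 1 of the 14 probes, with the number of its 24 readings well above background; open circles did not pass the filter. Probes read in 23 or 24 of 24 readings lie from 0.69 to 1.94, and those read in 8 to 13 lie from −0.03 to 0.11.

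The 2 genotypes were then looked at apart. In the control channel the LEC minus MEC differences were 1.60 for Zcchc12, 1.44 for Myh7, 1.35 for Vat1l, 1.19 for Eaf2, 1.12 for Nrgn, 1.0955 for Nr2f2 and 1.03 for Tspan33. In the mutant channel they were 2.41 for Myh7, 1.97 for Vat1l, 1.94 for Zcchc12, 1.44 for Nr2f2, 1.41 for Tspan33, 1.28 for Eaf2 and 1.20 for Nrgn. The difference between regions was thus above 0 in both genotypes for each of the 7 genes at its brightest probe, and larger in the mutant channel in each. The test of that change is the comparison of the mutant over control ratio between regions below, which no gene passed.

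The regions overlapped in 1 channel for 2 genes. In the control channel Eaf2 read 7.53, 6.94 and 8.17 in MEC and 9.75, 8.42 and 8.03 in LEC, so that MEC pair 3 lay 0.14 above LEC pair 3. In the mutant channel Nrgn read 9.59, 11.04 and 9.75 in MEC and 11.01, 11.47 and 11.50 in LEC, so that MEC pair 2 lay above LEC pair 1. Of the 12 member probes that passed the filter, 10 had all LEC pairs above all MEC pairs with both dyes averaged, against 23.7% of all probes that passed. The count was 8 in the control channel (13.5% of all probes), 9 in the mutant channel (17.8%) and 7 in both channels (8.2%). The members were chosen on this contrast, so nothing is read from these counts. With replicate 2 turned as labelled, the control differences of the brightest probes ran from 1.09 (Nrgn) to 1.92 (Myh7) and the mutant differences from 1.07 (Nr2f2) to 1.94 (Myh7). Zcchc12 and Nr2f2 were then larger in the control channel, at 1.89 against 1.64 and 1.47 against 1.07.

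Scaling between arrays moved all 7 values. Quantile scaling, used above, gave the smallest values among the 4 scalings. Without scaling, where the median of all probes was itself 0.26 higher in LEC, the differences were 2.44 for Myh7, 2.36 for Zcchc12, 2.20 for Vat1l, 1.85 for Nrgn, 1.80 for Nr2f2, 1.80 for Eaf2 and 1.72 for Tspan33. With each array's median subtracted they ran from 1.45 (Tspan33) to 2.16 (Myh7), and with its 75th percentile subtracted from 1.56 (Tspan33) to 2.28 (Myh7).

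The direction was the same for each of the 7 brightest probes under these scalings, in each dye and with each pair left out. The second Tspan33 probe read 0.11 with quantile scaling, −0.05 with the median subtracted, 0.06 with the 75th percentile subtracted, 0.22 without scaling and 0.71 with Agilent's processed signals. Agilent's processed signals, which lack the added offset of 50 that shrinks the differences of dim probes, gave 2.60 for Myh7, 2.34 for Zcchc12, 2.31 for Vat1l, 1.79 for Nr2f2, 1.74 for Tspan33, 1.49 for Eaf2 and 1.20 for Nrgn. Nrgn then ranked 114 and Eaf2 46, while Myh7, Zcchc12 and Vat1l stayed at rank 10 or above. The order of the 7 genes is therefore not settled between neighbours. Myh7, Zcchc12 and Vat1l were the highest of the 7 under each scaling, in each dye and in each genotype channel, and Nr2f2, Eaf2, Tspan33 and Nrgn lay within 0.11 of one another with quantile scaling, less than the SD of Eaf2 in LEC.

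**Figure D3:**
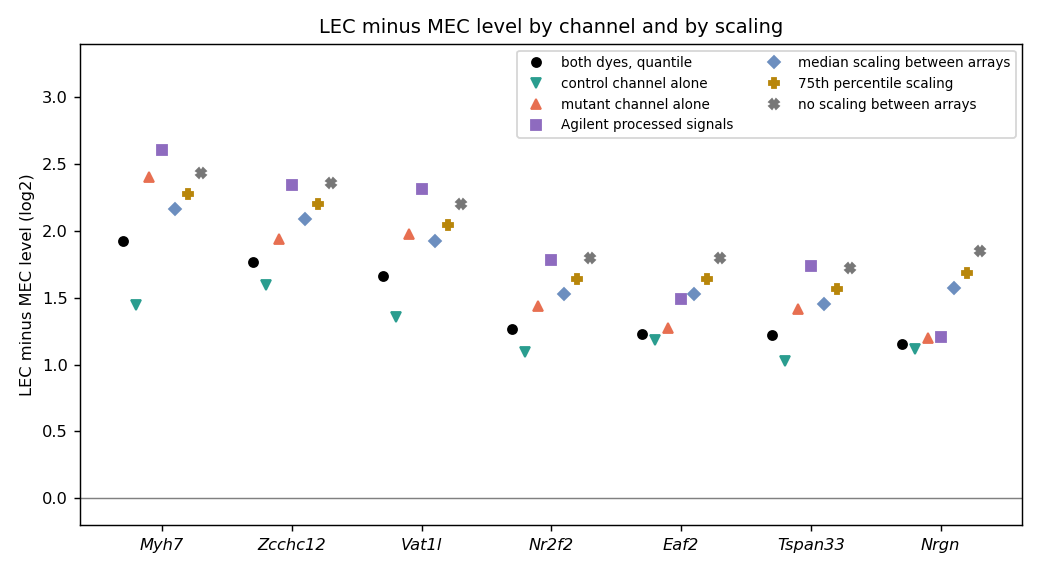
The vertical axis gives the LEC minus MEC level (log2) of the brightest probe of each gene under 7 ways of computing it: both dyes with quantile scaling, each genotype channel, Agilent's processed signals and 3 other scalings. The values lie between 1.03 and 2.60 and above 0 in each case.

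The comparison of mutant with control asked whether the genes differ in neurons that lack Naglu, and it did not enter the choice of the genes. No gene passed it in either region. By limma with Benjamini-Hochberg adjustment over 12987 probes, 0 probes passed in MEC and 0 in LEC (0% each), with 136 (1.05%) and 199 (1.53%) at an unadjusted p under 0.05. For the difference of the ratio between regions 0 passed, with 71 (0.547%) at an unadjusted p under 0.05, and for the mean of both regions 0 passed, with 274 (2.11%).

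Vat1l had log2 ratios of mutant over control of 0.38, 0.47 and 0.80 in the 3 LEC pairs and of −0.33, −0.16 and 0.29 in MEC. The 3 LEC ratios were above 0 and above the MEC ratios. The LEC mean was 0.55 (SE 0.13, limma unadjusted p = 0.00399, adjusted p = 1.00), and the LEC minus MEC difference of the ratio 0.62 (SE 0.19, limma unadjusted p = 0.0123, adjusted p = 1.00). By the labelled dyes LEC pair 2 turns to −0.47 and the LEC mean to 0.24, and with the files also taken as labelled the LEC mean is 0.16.

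Tspan33 had ratios of 0.20, 0.37 and 0.40 in LEC and of −0.10, 0.10 and −0.17 in MEC. These too did not overlap between the regions. The share of all probes with such an order of ratios is not given here, so nothing is read from it for Vat1l or Tspan33. The LEC mean was 0.33 (SE 0.08, limma unadjusted p = 0.00380, adjusted p = 1.00) and the difference between regions 0.38 (SE 0.11, limma unadjusted p = 0.00960, adjusted p = 1.00). By the labelled dyes LEC pair 2 turns to −0.37 and the LEC mean to 0.08, and with the files also taken as labelled the LEC mean is 0.12.

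Myh7 had ratios of −0.06, 1.79 and 0.93 in LEC and of −0.39, 0.37 and −0.21 in MEC. LEC pair 2 held the largest ratio of the 7 genes at their brightest probes, and LEC pair 1 was near 0. The LEC mean was 0.89 (SE 0.32, limma unadjusted p = 0.0260, adjusted p = 1.00), and by the labelled dyes it is −0.31, with the sign of pair 2 turned to −1.79. With both the files and the dyes taken as labelled, the LEC mean is 0.62 (SE 0.10, limma unadjusted p = 0.000457, adjusted p = 1.00) and the difference between regions 0.94 (SE 0.14, limma unadjusted p = 0.000283, adjusted p = 0.652), so the sign of the Myh7 mean in LEC depends on which labels are followed.

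The other 4 genes had ratios on both sides of 0 in at least 1 region, as did Vat1l, Tspan33 and Myh7. Zcchc12 read −0.24, −0.68 and 0.31 in MEC and 0.13, 0.21 and 0.09 in LEC, Nr2f2 0.02, −0.54 and 0.17 in MEC and 0.19, 0.58 and −0.08 in LEC. Nrgn read −0.79, 0.68 and 0.09 in MEC and −0.23, 0.60 and −0.13 in LEC, and Eaf2 −0.16, 0.46 and −1.01 in MEC and −0.55, 0.30 and −0.19 in LEC. For these 4 the mean ratios ran from −0.23 (Eaf2) to −0.01 (Nrgn) in MEC and from −0.15 (Eaf2) to 0.23 (Nr2f2) in LEC, each smaller than its SD over 3 pairs except Zcchc12 in LEC (0.14 ± 0.06, SD, n = 3). The mean of Zcchc12 in LEC had a limma unadjusted p of 0.417 (SE 0.16, adjusted p = 1.00). That SE also holds the wider spread of the MEC pairs (SD 0.50, n = 3).

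**Figure D4:**
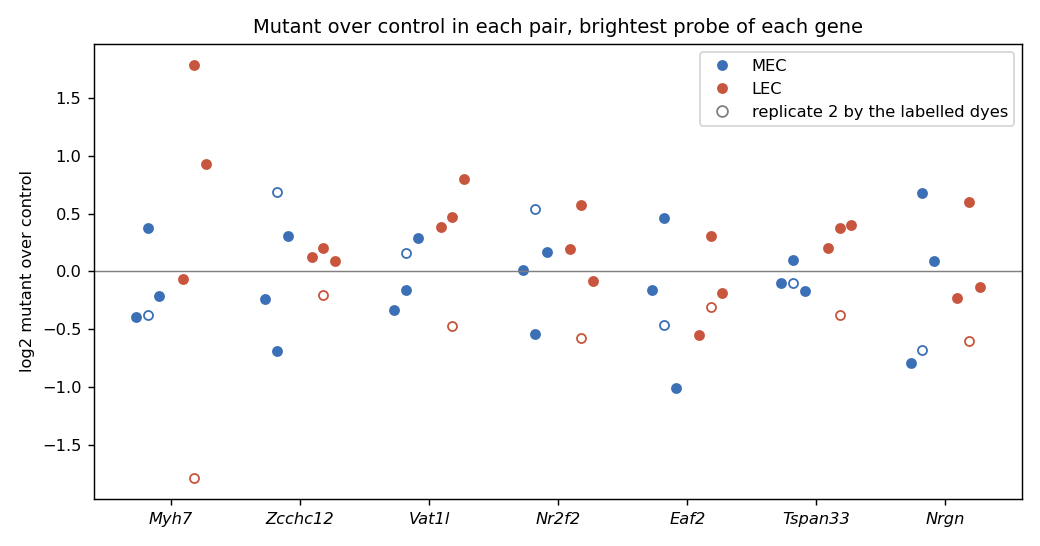
The vertical axis gives the log2 ratio of mutant over control in each of 3 MEC and 3 LEC pairs for the brightest probe of each gene; open circles show pair 2 of each region by the labelled dyes. The filled LEC points of Vat1l (0.38 to 0.80) and Tspan33 (0.20 to 0.40) lie above their MEC points, an order given without its share over all probes. Myh7 is the most spread, from −0.06 to 1.79 in LEC.

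Genes of the same families were compared between the regions, each by the brightest probe that passed the filter. Over all 9557 named genes measured, 13.8% were higher in LEC, 12.3% lower and the median difference was 0.01. Of 16 NR2 receptors, retinoid X partners and COUP-TF cofactors, 13 were measured, 6 were higher in LEC and 1 lower, with a median of 0.16. Rxrg, a retinoid X receptor with which NR2 receptors can pair, was higher by 0.72 (SE 0.08, limma adjusted p = 0.00120), followed by Hnf4a (0.41), Nr2e3 (0.38), Ncor1 (0.27), Nr2f6 (0.21) and Zfpm1 (0.15). The other 3 probes of Ncor1 read −0.07 to 0.08, so its direction rests on 1 probe. Bcl11a, a zinc finger protein that binds COUP-TF receptors, was lower, with a difference of −0.48 (SE 0.06, limma adjusted p = 0.00144). With median scaling 7 of the 13 were higher and 0 lower, and Bcl11a lay above 0 without scaling. Nr2f1, the closest relative of Nr2f2, differed by 0.12 (SE 0.05, limma adjusted p = 0.140). Its probe was as dim as the dim member probes, at 5.93 to 6.15, so a lack of difference cannot be read from it.

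Of 28 genes of calmodulin, its targets and its other neuronal binders, 24 were measured, with 3 higher in LEC, 10 lower and a median of −0.17, while Nrgn read higher. Higher were Marcks (0.67, SE 0.17, limma adjusted p = 0.0224), Camk2b (0.43) and Gap43 (0.20), which like neurogranin is a calmodulin-binding substrate of protein kinase C. Gap43 was read at 5.96 to 6.19, about as low as the dim member probes. Among the lower were Camkv (−0.89, SE 0.14, limma adjusted p = 0.00435), Prkcb (−0.73), the calcineurin subunits Ppp3r1 (−0.53), Ppp3cb (−0.39) and Ppp3ca (−0.34), Camk2g (−0.51), Pcp4l1 (−0.34), Camkk2 (−0.28) and Camk2n2 (−0.20). A second probe of Camkv read 0.30, one of Camkk2 0.0057, and the other probes of Ppp3cb −0.18 and 0.06. The direction of this list depends on the scaling. With median scaling 5 of the 24 were higher and 1 lower, the median was 0.12, and Ppp3ca, Ppp3cb, Camkk2 and Camk2n2 lay above 0. Without scaling 17 were higher and 0 lower, where the median of all named genes was 0.28. Camk2a, a kinase subunit abundant in forebrain excitatory neurons, differed by −0.17 (SE 0.06, limma adjusted p = 0.0944).

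Of 30 genes of BMP signalling 17 were measured, with 5 higher in LEC, 0 lower by limma (1 at an unadjusted p under 0.05) and a median of 0.16. Higher were Id2, an inhibitor of basic helix-loop-helix factors (0.63, SE 0.11, limma adjusted p = 0.00482, another probe 0.05), the receptor Acvr2b (0.28), the antagonist Chrd (0.22), the signal transducer Smad1 (0.21) and the pseudoreceptor Bambi (0.19). Bambi was read at 5.93 to 6.20, about as low as the dim member probes. Zcchc18, the relative of Zcchc12, differed by −0.35 (SE 0.15, limma adjusted p = 0.123). With median scaling 8 were higher and 1 lower, and each of the 5 kept its direction.

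Of 30 myosins and sarcomere genes 15 were measured, with 0 higher in LEC by limma (4 at an unadjusted p under 0.05), 3 lower and a median of 0.03. With median scaling 4 were higher and 4 lower. Lower were Myh14 (−0.56, SE 0.09, limma adjusted p = 0.00375), Myh4 (−0.38) and Myh2 (−0.30), and the slow or cardiac partners Actc1 (0.07), Myl4 (0.03) and Tnnt2 (−0.06) did not pass. Of 25 tetraspanins and Adam10, 17 were measured, with 4 higher in LEC, 7 lower and a median of −0.01. Cd81 (0.73, SE 0.13, limma adjusted p = 0.00589), Tspan13 (0.57), Cd37 (0.43) and Tspan31 (0.25) were higher. Tspan2 (−0.75), Tspan12 (−0.70), Tspan17 (−0.51), Cd9 (−0.43), Tspan7 (−0.38), Tspan3 (−0.37) and Tspan5 (−0.28) were lower, and of these Tspan5 and Tspan17 belong, like Tspan33, to the group that binds ADAM10. With median scaling 5 were higher and 1 lower, and without scaling Tspan3, Tspan5, Tspan7, Tspan17 and Cd9 lay above 0.

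Of 17 genes of the ELL and super elongation complexes 10 were measured, and Mllt1 was higher in LEC (0.28, SE 0.07, limma adjusted p = 0.0220, another probe −0.02). Eaf1, the paralog of Eaf2, differed by −0.14 (SE 0.06, limma adjusted p = 0.113), and Ell by 0.02. Of 9 reductases related to Vat1l 6 were measured, and Cryz, a quinone reductase, was higher (0.41, SE 0.08, limma adjusted p = 0.00739). Vat1 itself did not pass the filter.

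Some markers of cell classes differed between the regions in these captures, and their part in the members' differences was not tested. Over all named genes 13.8% were higher in LEC and 12.3% lower, and several of the lists below lie near those shares. The summed level of markers of interneurons from the caudal ganglionic eminence, a class in which Nr2f2 is used as a marker, was 1201 to 1653 in the MEC pairs and 784 to 941 in the LEC pairs (the sum of each gene's linear level). Of its 7 measured genes 0 were higher in LEC by limma (1 at an unadjusted p under 0.05), and Htr3a (−1.01, SE 0.19, limma adjusted p = 0.00778) and Adarb2 (−0.26) were lower, with 4 of the 7 above 0. Htr3a carried the sum, which without it was 404 to 422 in MEC and 407 to 418 in LEC. With the 75th percentile subtracted 0 of the 7 were higher and 0 lower by limma, and without scaling 4 were higher and 0 lower. Of the 5 measured markers of all inhibitory neurons 0 were higher by limma (0 at an unadjusted p under 0.05), Slc32a1 (−0.42) and Gad1 (−0.31) were lower except without scaling, where both lay above 0 (1 of the 5 was lower by limma with the median subtracted and 0 with the 75th percentile subtracted), and the sum was 604 to 693 in MEC and 522 to 561 in LEC. For interneurons of the medial eminence the sum was 864 to 984 in MEC and 1152 to 1226 in LEC, with Nos1 (1.31) and Sst (0.88) higher and Pvalb (−0.55), Kcnc1 (−0.48) and Satb1 (−0.34) lower of 9.

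Of 9 oligodendrocyte markers 2 were higher in LEC and 4 lower. Mobp, a myelin protein, read −0.67 (SE 0.10, limma adjusted p = 0.00331) and Mbp 0.97, with its second probe at −1.05, and the sum was 1331 to 1583 in MEC and 1076 to 1215 in LEC. Excitatory markers gave a sum of 3409 to 3705 in MEC and 3776 to 4219 in LEC, with Lmo4 (0.87, another probe 0.15) higher and Neurod6 (−1.15) lower of 8. Of 6 measured markers of the neighbouring amygdala and piriform cortex, Lypd1 (0.80) and Cdh13 (0.48) were higher and Rspo2 (−1.09), Nr4a2 (−0.85) and Trps1 (−0.45) lower, with a sum of 1044 to 1067 in MEC and 937 to 971 in LEC. Markers of astrocytes (0 of 8), vessels (0 of 8) and blood, choroid plexus and meninges (0 of 7) had no gene past the limma test, with 0, 1 and 2 at an unadjusted p under 0.05. Of 11 microglial markers Cx3cr1 was higher by 0.19, from a dim probe read at 5.85 to 6.10. The sums of these 4 lists overlapped between the regions. Without the gene that moved each sum most, the sums of the other 6 lists overlapped too.

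The genes whose levels over the 6 pairs were most like those of a member by Pearson's correlation were Grhl1 (0.999) and Fhl1 (0.997) for Myh7, Gap43 (0.998) and Plac9a (0.998) for Zcchc12, Fgf6 (0.998) and Gak (0.998) for Vat1l, and Kcna6 (0.997) and Cpne7 (0.996) for Nr2f2. For Nrgn they were Fam155a (0.995) and Vps26a (0.994), for Eaf2 Syne2 (0.994) and Tollip (0.991), and for Tspan33 Gria1 (0.999) and M6pr (0.997). These are descriptions over 6 points that share the regional difference and were picked from 9557 genes. A correlation does not measure the size of a difference. The LEC minus MEC levels of these genes ran from 0.07 (Fgf6) to 0.92 (Cpne7), against 1.16 (Nrgn) to 1.93 (Myh7) for the members. For no member did 1 of its names return when ranks were used. The names by rank all had a correlation of 1 with ties broken by probe name, so ranks cannot decide which genes are most alike. Nor did a member's name return when the 12 arrays were the points. Kcna6 and Cpne7, named for Nr2f2 over pairs, were then the names for Zcchc12 over arrays.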

How the data were processed

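Per the file headers, the authors' scanner output gives each spot a raw intensity in both dyes (mean signal, median local background), processed signals and a log10 ratio (Cy5 divided by Cy3), from Agilent Feature Extraction (9.5.1.1 per the file headers, 8.5.1.1 per the submitters' processing notes). A deposited value table of the authors gives 1 log2 ratio per spot and array, with unstated centring and direction. Flags of 0 or 1 give spots well above background.

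Arrays were matched to samples and turned in direction by correlation of that table with the scanner ratios. Signals were corrected with normexp (offset 50), loess-normalised within arrays and quantile-scaled between arrays in limma 3.58.1 (R 4.3.3). Dye-swapped arrays were averaged, and lmFit and eBayes were run on pair means over all probes that passed the filter, with Benjamini-Hochberg adjustment and a threshold of 0.05. The limma fits were tested on simulated pair means, while array matching, background correction and scaling were not. Gene names came from RefSeq, and probe coordinates are those the files give. Replicate numbers did not pair the samples (correlations of same-numbered deviations −0.06, 0.01 and −0.02 for levels, and −0.18, −0.004 and −0.35 for ratios). Between unlike numbers the ratios ran from −0.37 (MEC 2 with LEC 1) to 0.43 (MEC 3 with LEC 1). Whether the regions pair under other numbers was not tested.

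The members and lists were chosen with earlier results of these data known. All 14 member probes, per member the 2 genes most like it, and per list the genes past the test were named. Nr2f1, Camk2a, Zcchc18, Eaf1, Ell, Vat1, Actc1, Myl4 and Tnnt2 were added after their values were seen. A few list genes are not reported here by name, and they remain in the counts.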

Additional observations from a re-analysis of the deposited data

Results flagged for a closer look

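Over the 6 arrays of a region, 2 of 24 groups held an array far from the others, about as many as chance gives at 1 in 20. For the second Myh7 probe in MEC, the array of replicate 2 with the mutant in Cy5 by the authors' table read 6.83, with the nearest other array at 6.56 and the lowest at 6.43 (log2 level). For Zcchc12 in LEC, the array of replicate 1 with the mutant in Cy3 read 8.88, with the nearest other array at 9.08 and the highest at 9.18.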

How the results depend on the processing

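With quantile scaling 1716 probes were higher and 1449 lower in LEC. The counts were 2973 and 2038 (59.3% higher) after median scaling, 4511 and 487 (90.3%) after 75th percentile scaling, and 9687 and 88 (99.1%) with no scaling, against 54.2% in the setting used. They fell to 272 and 343 in the control channel alone (44.2% higher), to 231 and 221 in the mutant channel alone, and to 425 and 467 without replicate 2 of both regions. Leaving out 1 pair gave 985 to 1611 higher and 944 to 1284 lower. With no scaling 11 member probes, against 7, had LEC above MEC in both channels, where the median of all probes was itself 0.26 higher in LEC. The share of all probes in that setting is not given here, so nothing is read from this rise. With the replicate block 1475 were higher and 1290 lower, and the replicate block changed no call of mutant against control.

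Mutant against control gave 0 probes past the threshold. With the 12 arrays as units 6 passed in MEC, 1 in LEC and 3 in the mean of both regions. The 2 arrays of a pair hold the same RNA and are not separate replicates, so nothing is read from these calls. Leaving out 1 pair gave 0 to 1 in MEC and 0 to 1 in the mean, the 1 without LEC replicate 2. Over 336 member ratios under the alternatives 0 passed (smallest limma adjusted p = 0.389).

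The signs of these ratios changed as follows, and the cause was not tested. With replicate 2 turned as labelled, MEC read 0.25 for Zcchc12, 0.039 for Vat1l and 0.24 for Nr2f2. LEC read −0.31 and −0.30 for the 2 Myh7 probes, −0.16 for Nr2f2 and −0.32 for Nrgn. LEC minus MEC read −0.13 for the second Myh7 probe, −0.25 for Zcchc12 and −0.40 for Nr2f2. With files and dyes as labelled, MEC was the same as in that setting, Eaf2 in LEC read 0.078, and LEC minus MEC read −0.17 for Zcchc12 and −0.067 for Nr2f2. Without replicate 2 of both regions MEC read 0.036 for Zcchc12 and 0.093 for Nr2f2, LEC −0.18 for Nrgn, and LEC minus MEC −0.038 for Nr2f2.

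Leaving out 1 pair, the MEC ratio ran from −0.30 to 0.081 and −0.19 to 0.0355 for the 2 Myh7 probes, −0.46 to 0.036 for Zcchc12, −0.25 to 0.063 for Vat1l, −0.26 to 0.093 for Nr2f2, −0.35 to 0.39 for Nrgn and −0.58 to 0.15 for Eaf2. The LEC ratio ran from −0.18 to 0.23 for Nrgn and −0.37 to 0.058 for Eaf2. LEC minus MEC ran from −0.31 to 0.43 for Nrgn and −0.30 to 0.44 for Eaf2. The level difference of the second Tspan33 probe read −0.049 after median scaling. Slide and scan blocks were not run, since each slide held 1 array and each scan day 1 region. Dim probes and 3 pairs per region limit what these arrays can show.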
